A study of Homo sapiens with 14 samples.

Results

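T-to-C sites are positions where the RNA reads carried C although the reference base, on the strand recorded for the site, is T. They were collected from lists of changed bases called in 14 RNA sequencing libraries of 293FT cells. All sites with that change in any list were taken and counted once by position, strand and change. This gave 726 sites from 1251 calls, out of 22358 distinct sites of any change. For comparison there were 9770 A-to-I sites (read as A to G), 10609 C-to-U sites (read as C to T) and 1253 sites of the other 9 changes together.

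293FT is an established human cell line of kidney origin, chosen for easy transfection. The study asked whether a prime editor alters RNA bases away from its target, and every library title names hRNF2. The controls here were 3 groups of 3 libraries each: cells labelled non-transfection, cells given EGFP (a fluorescent protein) and cells given Cas9 nuclease. PE3, a Cas9 nickase joined to a reverse transcriptase and used with a guide that templates the edit and another that nicks the other strand, was given in the 2 libraries analysed here, replicates 2 and 3. hA3A-BE3, a cytosine base editor built from a Cas9 nickase and the deaminase APOBEC3A, was given in 3. Per the labels, RNA came from cells sorted 40 h after transfection for the brightest 15%. The non-transfection libraries carry the same entries, and how these apply to cells without transfection is not known here. Whether the libraries of a group stem from independent cultures is not stated, and the p-values therefore reflect only how far these libraries vary, possibly for technical reasons.

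An A changed to inosine by an ADAR enzyme, which acts on double-stranded RNA, is read as G. A T-to-C change has no comparable well-known enzyme in human cells. The same base pair change is T-to-C when written on one strand of the DNA and A-to-G on the other, so a list that records a transcript on the wrong strand shows its A-to-I sites as T-to-C. Whether any site arose in that way was not tested; region, neighbouring sites, recurrence and level were measured. No DNA sequence of these cells was compared here. A site is therefore a difference from the reference, and whether the DNA of the cells carries it was not tested.

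The sites shown first are 7 of the exonic sites called in 10 or more libraries, since they recur most; LONRF2, a coding site called in 12 libraries, is given below without its sequence. Each sequence is 21 bases of the GENCODE 29 transcript on the recorded strand (GRCh38), written 5′ to 3′, with the changed T in capitals.
NANS, coding, chr9:98060792-98060812, plus strand: ctgattgtgcTaagttccaga
TAF4B, 3′ UTR, chr18:26390703-26390723, plus strand: gtgcaaagtaTtagaaggaac
ADI1, coding, chr2:3500906-3500926, minus strand: ggtacttcgaTgtgagggaca
PDK1, coding, chr2:172595902-172595922, plus strand: acgaggctgaTgactggtgcg
MT-RNR1, ribosomal RNA, chrM:1410-1430, plus strand: gggtcgaaggTggatttagca
TBC1D13, 3′ UTR, chr9:128807889-128807909, plus strand: aagaggcccaTgttccggaga
H2AFV, 3′ UTR, chr7:44829591-44829611, minus strand: ttttttttccTttaatagagt
They lie in coding sequence, 3′ UTRs and a ribosomal RNA, and their levels are given below with the other recurrent sites.

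The number of T-to-C sites did not separate the editors from the controls. Non-transfection libraries had 92, 92 and 83 sites, EGFP libraries 86, 86 and 97, and Cas9 libraries 50, 70 and 166. PE3 libraries had 61 and 73, and hA3A-BE3 libraries 68, 96 and 131. The Cas9 libraries alone span the whole range of the other groups. On the log2(sites + 1) scale, hA3A-BE3 exceeded the 9 controls by 0.12, a 1.09-fold difference with a 95% interval from -0.61 to 0.79 (exact permutation test, p = 0.655, adjusted p = 0.748 over 8 comparisons of libraries). PE3 differed by -0.38, a 0.767-fold value with an interval from -1.43 to 0.54 (exact permutation test, p = 0.291, adjusted p = 0.655). The PE3 difference was 0.15 when scaled per gigabase and 0.21 per 1000 A-to-I sites, and the hA3A-BE3 difference was -0.11 without hA3A-BE3 replicate 3. With 2 PE3 libraries the smallest p the design allows is 0.0364 before adjustment. A PE3 comparison could therefore pass after adjustment over 8 only if most of the 8 had a p that low.

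**Figure D1:**
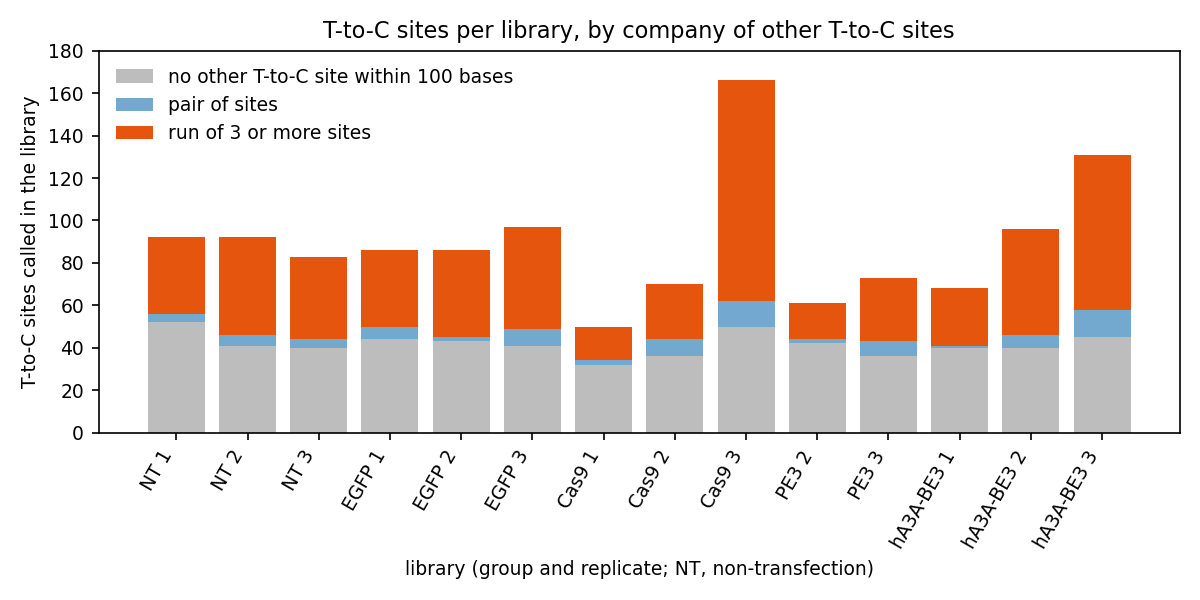
Bars give the T-to-C sites called in each library (vertical axis, number of sites). Stacks show whether a site lies alone, in a pair or in a run of 3 or more T-to-C sites 100 bases or less apart. Pairs and runs were built from the sites of all 14 libraries pooled, so the neighbours of a site may not be called in its library. Sites that lie alone number 32 to 52 in every library, while sites in runs number 16 in Cas9 replicate 1 and 104 in Cas9 replicate 3.

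As a share of all sites other than C-to-U, T-to-C sites made up 3.995% ± 0.793 (SD, n = 3) with hA3A-BE3, 4.44% ± 1.87 (SD, n = 2) with PE3 and 3.87% ± 0.690 (SD, n = 9) in the controls. Neither difference passed the test (exact permutation p = 0.764 and 0.4, adjusted p = 0.764 and 0.655), and the PE3 difference of 0.57 percentage points was -0.752 without PE3 replicate 2. The median level, the percentage of covering reads that carried C, was 13.8% ± 2.00 (SD, n = 3) with hA3A-BE3, 15.3% ± 6.70 (SD, n = 2) with PE3 and 12.7% ± 1.87 (SD, n = 9) in the controls (exact permutation p = 0.409 and 0.364, adjusted p = 0.655 for both). PE3 replicates 2 and 3 lay at 20% and 10.5%, on either side of all hA3A-BE3 libraries. No library comparison had an unadjusted p under 0.05.

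Across the 14 libraries, the number of T-to-C sites rose with the number of A-to-I sites (Pearson's r = 0.766, permutation p = 0.0018, adjusted p = 0.0036; Spearman's rho = 0.775, permutation p = 0.00184, adjusted p = 0.00368). Without Cas9 replicate 3 and PE3 replicate 2, the libraries farthest from the median number of A-to-I sites, r was 0.696. The relation with mapped gigabases gave r = 0.732 (permutation p = 0.00537, adjusted p = 0.00537) but rho = 0.416 (permutation p = 0.139, adjusted p = 0.139), and r = 0.418 without the same libraries, so it rests on them. These were the 2 relations computed. Both numbers come from the same list of a library and share its depth.

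More T-to-C sites lay in introns than in any other single region, but fewer than in all exonic regions together. Of the 726 sites, 311 lay in introns, 186 in coding sequence, 153 in 3′ UTRs, 20 in non-coding exons and 14 in 5′ UTRs. A further 39 lay inside a gene's span but in no transcript of the basic annotation, and 3 lay outside annotated genes. They fell in 378 genes, of which 305 had 1 site and 13 had 10 or more. Those 13 genes held 241 sites.

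Measured in each library, 45.7% ± 8.82 (SD, n = 14) of T-to-C sites were intronic, against 26.7% ± 4.51 of A-to-I sites and 14.8% ± 4.16 of the other changes, and T-to-C was higher in 14 of 14 libraries in both comparisons (paired exact permutation test, adjusted p = 0.000264 over 13 paired comparisons, for both). The share in 3′ UTRs, where most A-to-I sites were called, was 22.3% ± 6.69 for T-to-C and 59.0% ± 4.31 for A-to-I, lower in 14 of 14 libraries (paired exact permutation test, adjusted p = 0.000264). It was 28.0% ± 5.89 for the other changes (adjusted p = 0.0106, paired exact permutation test, lower in 13 of 14 libraries). The difference of -5.71 points from the other changes was -2.50 without runs of 3 or more T-to-C sites (adjusted p = 0.251, same exact permutation test) and -2.16 at 20 or more covering reads (adjusted p = 0.414). The libraries share sites, so these p-values describe these libraries. The intronic excess over A-to-I, 19.02 percentage points, did not hold under every limit. Over sites called in 1 library only, the difference was -4.24 (adjusted p = 0.499 by the same exact permutation test). Among those sites the T-to-C share was lower, at 34.6%, and the A-to-I share higher, at 38.8%, so both classes moved the difference. Without runs of 3 or more T-to-C sites, but with A-to-I runs kept, the difference was -1.75 (adjusted p = 0.547, same exact permutation test). At 50 or more covering reads the difference was -4.41 (adjusted p = 0.151, same exact permutation test). The intronic excess over the other changes was 17.97 points for sites called in 1 library only. That excess was 0.76 at 50 or more covering reads (adjusted p = 0.836, exact permutation test).

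**Figure D2:**
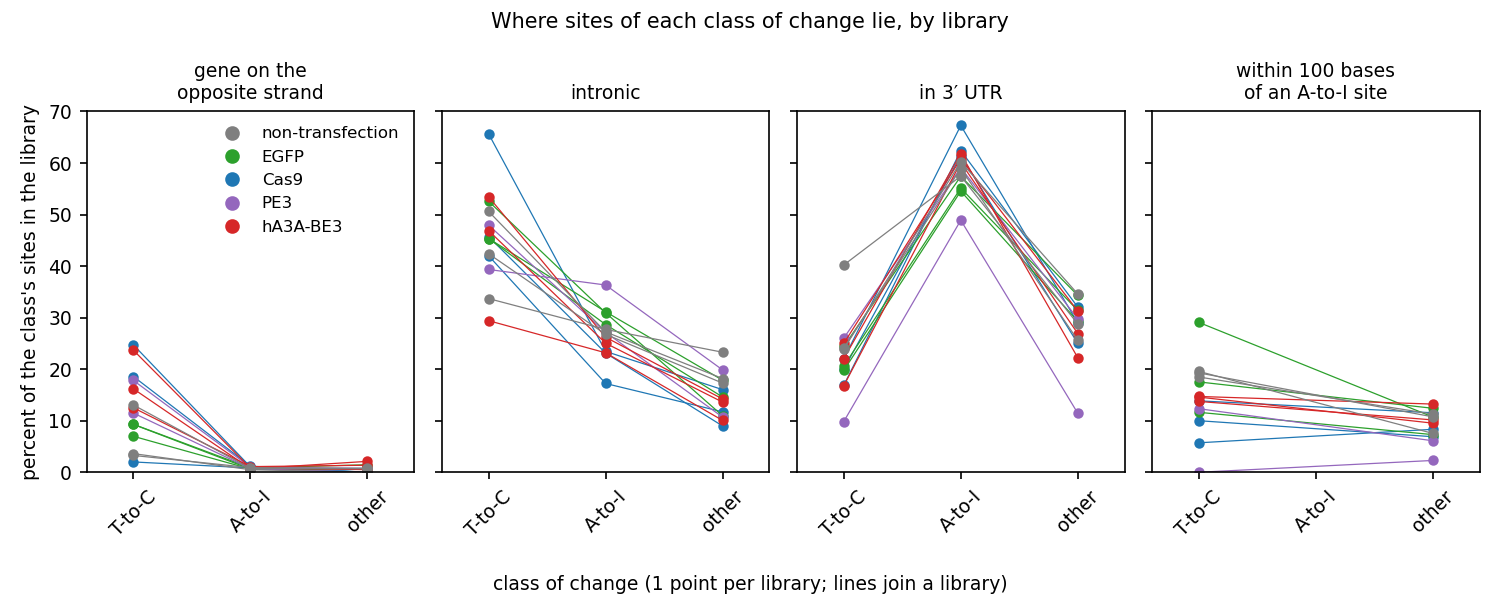
Each point is 1 library and lines join the classes within a library; the vertical axis is the percentage of the class's sites that have the feature named above the panel. T-to-C points lie above both other classes for a gene on the opposite strand in every library, and below A-to-I for 3′ UTRs; A-to-I sites have no points in the last panel because neighbours of their own class define it.

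T-to-C sites lay inside a gene annotated on the opposite strand more often than A-to-I sites did. The share of T-to-C sites with such a gene was 3.26%, 13.04% and 3.61% in the non-transfection libraries, 6.98%, 9.30% and 9.28% with EGFP, and 2%, 18.6% and 24.7% with Cas9. It was 11.5% and 17.8% with PE3, and 16.2%, 12.5% and 23.7% with hA3A-BE3. The highest A-to-I share in any library was 1.18%, below the lowest T-to-C share of 2%. The means were 12.3% ± 7.22 for T-to-C, 0.819% ± 0.199 for A-to-I and 0.649% ± 0.649 for the other changes (SD, n = 14; paired exact permutation test, adjusted p = 0.000264 for both, higher in 14 of 14 libraries). At 50 or more covering reads the differences were 1.16 points from A-to-I (adjusted p = 0.562, exact permutation test) and 2.27 points from the other changes (adjusted p = 0.151). No T-to-C site had a gene on the opposite strand without having one on its own strand. With only exons counted as genes, that share was 1.26 points above A-to-I (adjusted p = 0.0106, paired exact permutation test) and 0.940 points above the other changes (adjusted p = 0.0381).

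These overlaps belonged to few genes. Over distinct sites, 99 of 726 (13.6%) lay inside a gene of the opposite strand, in 10 genes, and 80 of the 99 lay in runs of 3 or more T-to-C sites. Only 12 of the 99 lay in an exon of the opposite gene. None of the 186 coding sites had an opposite-strand gene. The nearest protein-coding gene of the opposite strand contained 36 sites. A further 249 sites (34.3%) lay past the 3′ end of such a gene by 10000 bases or less, and 41 lay before its 5′ end by 10000 bases or less. Past a 3′ end lay 16.6% of A-to-I sites, 16.1% of C-to-U sites and 13.97% of the other changes. The share was 54.8% for T-to-C sites in runs of 3 or more and 19.7% for those that lay alone. These distinct-site shares are a description without a test.

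CRLF3, a cytokine receptor-like gene of chromosome 17 (30769388 to 30824776, minus strand), had the most T-to-C sites. Of its 51 sites, 39 lay inside SUZ12P1, a transcribed pseudogene of the Polycomb gene SUZ12 on the plus strand. The non-transfection libraries called 6, 10 and 0 of the 51, the EGFP libraries 6, 4 and 5, the Cas9 libraries 1, 2 and 10, the PE3 libraries 1 and 7, and the hA3A-BE3 libraries 4, 11 and 14. The non-transfection, Cas9 and hA3A-BE3 libraries each differ widely among themselves, and the hA3A-BE3 and non-transfection counts overlap. The median of the mean levels was 13.3%. A single run of 7 CRLF3 sites in 123 bases was called in non-transfection replicate 2 and in no other library.

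REEP5, a receptor-accessory protein of the endoplasmic reticulum, had its sites in Cas9 libraries only. All 16 lay within 164 bases of an intron (chr5:112893168-112893331, minus strand), inside the span of SRP19, a signal recognition particle subunit of the plus strand. Cas9 replicate 3 called 14 of them, Cas9 replicate 2 called 4 and Cas9 replicate 1 none. Mean levels ran from 7.41% to 61.5%. No list had any site recorded for SRP19 itself.

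SERHL2, a serine hydrolase-like gene on chromosome 22, had 18 sites, all within the pseudogene RRP7BP of the opposite strand. Its non-transfection libraries had none and EGFP libraries 0, 0 and 1. Cas9 libraries had 1, 6 and 8, PE3 libraries 5 and 1, and hA3A-BE3 libraries 7, 4 and 13. The hA3A-BE3 and Cas9 values overlap, and this gene was named for its number of sites, so no test was made between groups. The strongest SERHL2 site was at 63.2% (mean over 6 libraries), and no site was recorded for RRP7BP.

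RASA1, which encodes a GTPase-activating protein of the RAS pathway, had 12 intronic sites, all within the span of CCNH, the gene of cyclin H, on the minus strand. Cas9 replicate 3 called 7, hA3A-BE3 replicate 3 called 5, and 5 other libraries called 1 or 2. NFE2L3, a transcription factor gene named after its values were seen, had 5 intronic sites inside an intron of HNRNPA2B1 on the opposite strand.

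Sites of any change within 100 bases of a T-to-C site were all recorded on the same strand. Of the 726 sites, 0 had a neighbour of any change on the opposite strand within that distance. The same count was 0 of 9770 A-to-I sites, 0 of 10609 C-to-U sites and 0 of 1253 other sites. The lists therefore never record both strands of such a stretch, and the rule that set the strand is not stated in any source used.

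Part of the T-to-C sites came in runs, and most lay alone. Sites of all 14 libraries were pooled and joined where they lay 100 bases or less apart on the same strand. Of them, 279 (38.4%) fell in 46 runs of 3 to 20 sites, 62 in pairs and 385 (53.0%) alone. Among A-to-I sites 76.0% lay in runs of 3 or more of their own class, and among the other changes together 10.1%. These joining rules were chosen after the data were seen, and no test was made on them. Runs were short, with a median span of 76.5 bases.

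The 2 kinds of site differed in place. Of the 279 sites in runs, 206 were intronic, 41 lay in 3′ UTRs and 3 in coding sequence. Of the 385 sites that lay alone, 179 lay in coding sequence, 98 in 3′ UTRs and 65 in introns. Sites called in 1 library made up 58.8% of sites in runs and 88.1% of sites alone. Among the 9 controls the number of sites alone was 42.1 ± 6.23 (SD, n = 9) and the number in runs 43.6 ± 24.7. For hA3A-BE3 these were 41.7 ± 2.89 and 50 ± 23 (SD, n = 3), and for PE3 39.0 ± 4.24 and 23.5 ± 9.19 (SD, n = 2). In these counts the spread between libraries lay mainly in the runs. Runs were built from all libraries pooled, so a library with many sites helps to create the runs its sites are counted in. How much of the spread follows from that definition was not tested. Cas9 replicate 3 had sites in 25 of the 46 runs. It is the library with the most mapped bases by the depth columns, 10.6 gigabases against 3.26 to 8.87 in the others; the part of depth in its number was not tested.

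Among the runs, 18 were called in 5 or more libraries and 9 in a single library. The longest, in an intron of the zinc finger gene ZNF814 on chromosome 19, had 20 sites in 226 bases. Non-transfection libraries called 2, 3 and 7 of them, EGFP libraries 2, 3 and 6, Cas9 libraries 0, 1 and 12, and hA3A-BE3 libraries 0, 4 and 0, with none in PE3.

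The run in MCM8-AS1, an antisense gene to the DNA helicase gene MCM8, was the only run of 3 or more called in all 14 libraries (chr20:6000050-6000172, minus strand, 13 sites). Its main site was called in 13 libraries, at 75.0%, 65.5% and 57.1% in non-transfection cells, 89.5%, 93.8% and 81.5% with EGFP, and 82.4% and 74.3% in Cas9 replicates 1 and 3. PE3 gave 87.5% and 66.7%, and hA3A-BE3 73.9%, 76.5% and 75.9%. Coverage there was 8 to 35 reads. A nearby site of the run was at 38.6% ± 9.15 (SD, n = 11 libraries). No A-to-I site lay near this run; the nearest was 813301 bases from the main site.

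INTS11, which encodes the RNA-cleaving subunit of the Integrator complex, had 20 intronic sites, 13 of them called in Cas9 replicate 3. ANXA9, a member of the annexin family, had 16 intronic sites in 273 bases, with 8 called in Cas9 replicate 3. KIAA1257 had 15 intronic sites, with 8 called in EGFP replicate 2 and 0 in Cas9 replicate 3. The library with the most calls thus differed between genes. In PLCE1, a phospholipase C gene named after its values were seen, all 13 sites lay in the 3′ UTR and were called in 12 libraries.

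Of the 279 T-to-C sites in runs of 3 or more, 98 had an A-to-I site of any library within 100 bases, against 69 of the 385 that lay alone. This split is a description without a test. Over all libraries, 193 T-to-C sites (26.6%) had an A-to-I site within 100 bases, against 86.3% of A-to-I sites and 20.03% of the other changes. Within the same library, 14.3% ± 6.83 of T-to-C sites and 9.15% ± 2.93 of the other changes lay that close to an A-to-I site (SD, n = 14; paired exact permutation test, adjusted p = 0.00278, higher in 12 of 14 libraries). The difference of 5.17 points was 0.46 without runs of 3 or more T-to-C sites (adjusted p = 0.799, exact permutation test). It was -1.87 over sites called in 1 library only (adjusted p = 0.245) and 3.04 at levels of 10% or more (adjusted p = 0.149, exact permutation tests). PE3 replicate 2, with 867 A-to-I sites, had no T-to-C site near one.

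DIS3L encodes a cytoplasmic exosome nuclease, and all T-to-C sites of the run in its 3′ UTR lay near A-to-I sites. The run had 14 T-to-C sites in 162 bases (chr15:66333486-66333647, plus strand). With all libraries pooled, 7 A-to-I sites lay within it or 100 bases around it. Those A-to-I sites were called in 1 to 4 libraries each, at mean levels from 6.25% to 10.3%. Non-transfection libraries called 3, 7 and 4 of the T-to-C sites, EGFP libraries 4, 5 and 3, Cas9 libraries 1, 0 and 5, PE3 libraries 0 and 5, and hA3A-BE3 libraries 2, 10 and 5. Its most recurrent site, in 9 libraries, was at 17.5% ± 6.34. Recurrent DIS3L sites are shown beside a PLCE1 site, again with the changed T in capitals. Some contexts of these genes share a word of 12 bases with those of other genes, but not every context shown does.
DIS3L, chr15:66333516-66333536, plus strand: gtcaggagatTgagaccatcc
DIS3L, chr15:66333531-66333551, plus strand: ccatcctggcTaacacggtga
DIS3L, chr15:66333607-66333627, plus strand: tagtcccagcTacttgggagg
PLCE1, chr10:94330568-94330588, plus strand: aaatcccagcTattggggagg
Of the 14 DIS3L contexts, 8 share a word of 12 bases, on either strand, with a T-to-C context of another gene, as do 6 of 13 in PLCE1. Over the 350 contexts of this kind the count was 62 of 150 in 3′ UTRs and 10 of 162 in coding sequence. No repeat annotation was used here, so these words carry no name.

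NEIL1, a DNA glycosylase gene whose transcript is a known ADAR recoding target, had 14 intronic T-to-C sites, and all 14 lay within 100 bases of an A-to-I site. The gene had 22 A-to-I sites on the same strand. Non-transfection libraries called 7, 4 and 4 of the T-to-C sites, EGFP libraries 5, 4 and 3, Cas9 libraries 1, 0 and 3, PE3 libraries none, and hA3A-BE3 libraries 1, 0 and 9. The most recurrent site was at 11.7% ± 5.65 over 9 libraries. DCLRE1C, a nuclease gene of V(D)J recombination named after its values were seen, had 7 of its 10 sites near A-to-I sites.

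Of all T-to-C sites, 14 were directly next to an A-to-I site. In 12 of the 14 the A-to-I base followed the T on the recorded strand, so the pair reads TA on both strands, and 9 of the 14 lay in runs. Among the 1253 other sites, 19 were next to an A-to-I site: an A-to-I base came directly before 13 and directly after 8, with some counted in both.

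The recurrent sites outside runs behaved differently. Of the 726 sites, 550 were called in 1 library, 82 in 2, 33 in 3, 45 in 5 or more, 14 in 10 or more and 3 in all 14. Of the 176 called in 2 or more libraries, 115 were called in both an editor library and a control library. Of the 14 sites in 10 or more libraries, 11 lay alone and 3 in the MCM8-AS1 run. A site missing from a list can be unchanged, uncovered or under the limits of the lists, so a missing call is not a level of 0.

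**Figure D3:**
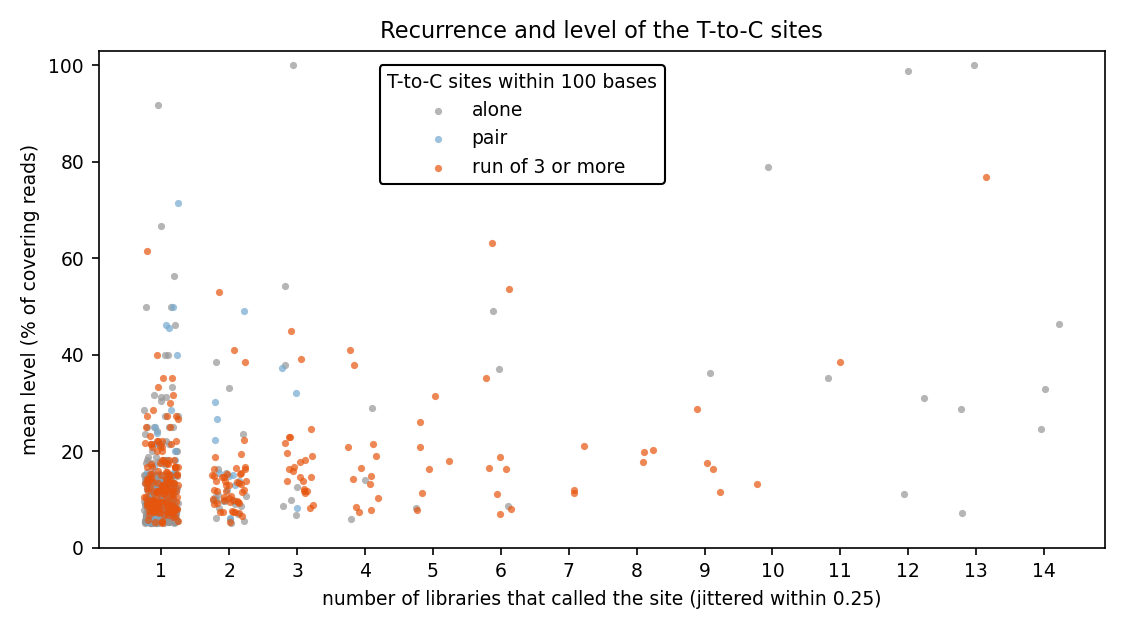
Each point is 1 T-to-C site, placed by the number of libraries that called it (horizontal axis, jittered) and its mean level in percent of covering reads (vertical axis), coloured by whether it lies alone, in a pair or in a run. Most sites lie at the lower left, with 550 sites in 1 library; the 3 sites called in all 14 lie between 24.5% and 46.3%.

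Every library called the same 3 sites. The site in NANS, which encodes the sialic acid synthase of human cells, is a synonymous change (A51A). Its level was 27.4%, 45.2% and 37.9% in non-transfection cells, 26.0%, 30.4% and 38.9% with EGFP, 29.4%, 30.2% and 30.0% with Cas9, 33.3% and 37.2% with PE3, and 23.0%, 38.6% and 33.9% with hA3A-BE3. The groups overlap, and the mean was 33.0% ± 6.03 (SD, n = 14) at 30 to 213 covering reads. The site in an intron of HNRNPK, an RNA-binding protein gene, at position 83969988 of chromosome 9 on the minus strand, varied most of the 3. It was at 26.7%, 50% and 56.5% in non-transfection cells, 46.7%, 35.0% and 41.2% with EGFP, 46.9%, 69.2% and 68.4% with Cas9, 23.1% and 53.8% with PE3, and 45%, 41.7% and 44.4% with hA3A-BE3. Its coverage was 12 to 32 reads. The site in the 3′ UTR of TAF4B, a subunit gene of the general transcription factor TFIID, was the steadiest at 24.5% ± 3.79 (SD, n = 14), from 19.6% to 31.2%.

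The mean level over these 3 sites was 32.5% ± 2.90 (SD, n = 3) with hA3A-BE3, 33.2% ± 6.26 (SD, n = 2) with PE3 and 35.6% ± 4.70 (SD, n = 9) in controls. The differences were -3.13 points (95% interval -9.11 to 3.28, exact permutation p = 0.327, adjusted p = 0.655) and -2.38 points (-12.01 to 9.98, exact permutation p = 0.545, adjusted p = 0.727). Of the 152 sites of any change called in all libraries, 1.32% did not overlap between hA3A-BE3 and controls, and 7.24% did not between PE3 and controls. Of the 3 T-to-C sites, 0 did in either comparison. By the exact permutation test with Benjamini-Hochberg adjustment over the 152 sites, 0 passed in either comparison. The smallest p this test allows is 0.00909 for hA3A-BE3 and 0.0364 for PE3. A site could therefore pass only together with many others, and the 0 does not show that levels were unchanged. For hA3A-BE3 and PE3, 3 and 11 of the 152 had an unadjusted p under 0.05, none of them T-to-C.

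**Figure D4:**
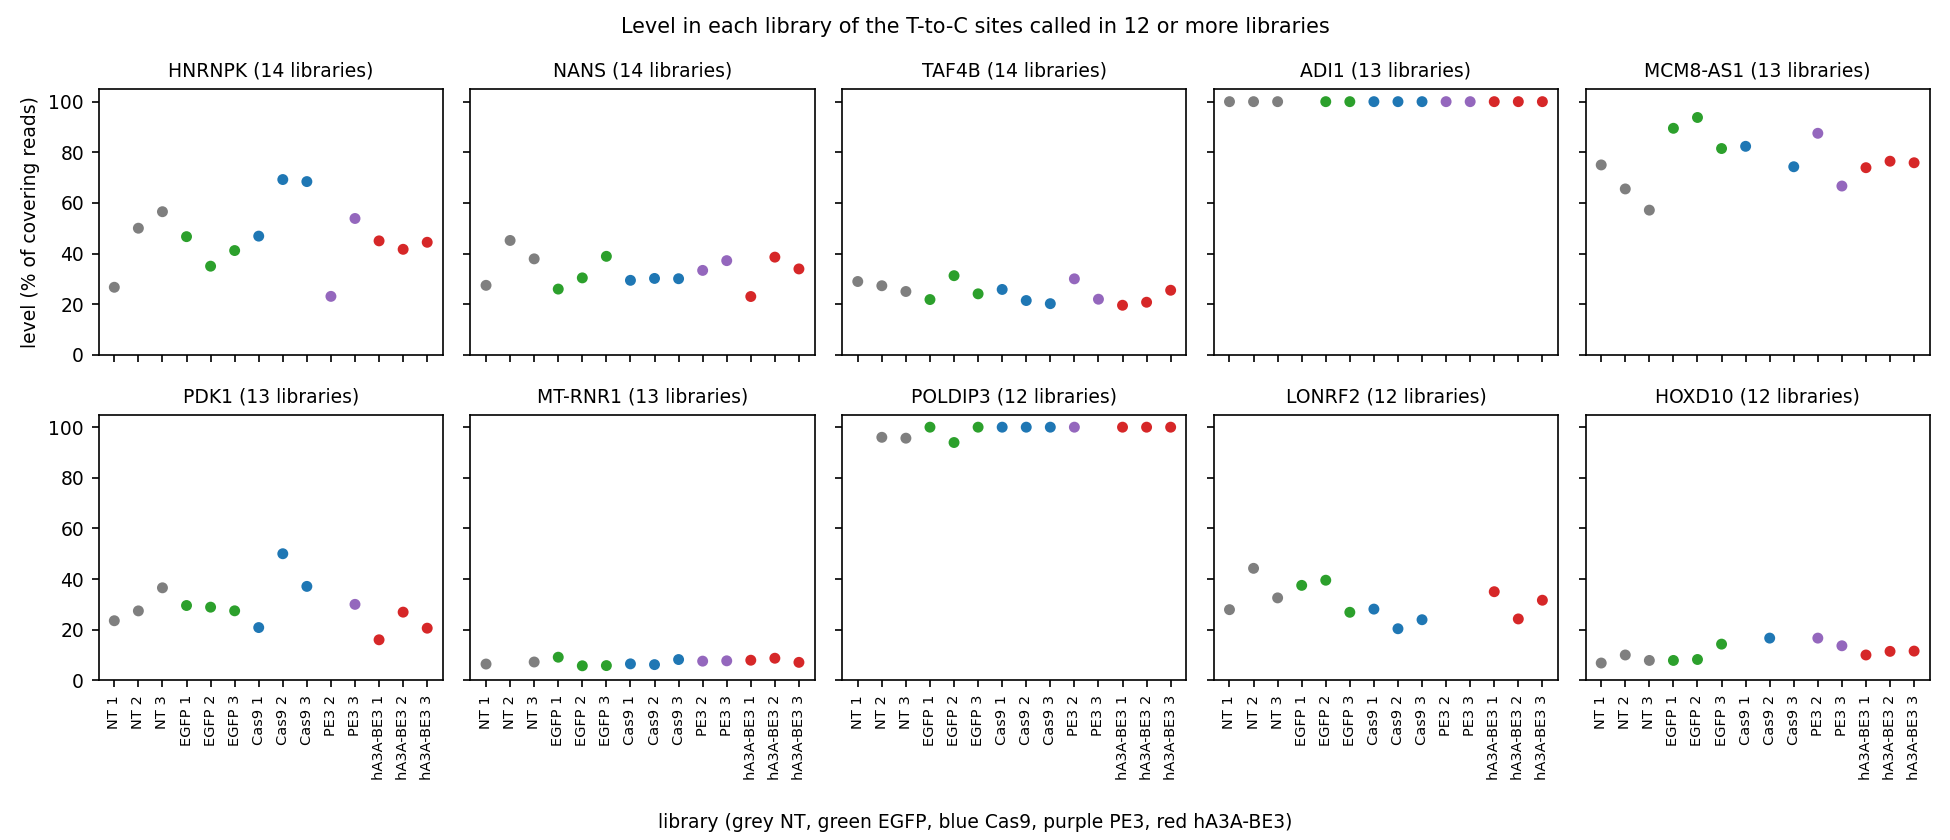
Level in percent of covering reads (vertical axis) in each library (horizontal axis, coloured by group) for the 10 T-to-C sites called in 12 or more libraries; a missing point means that the library did not list the site. ADI1 lies at 100% in all 13 libraries that list it, and MT-RNR1 between 5.73% and 9.12%.

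Some recurrent sites were near complete. ADI1, a methionine salvage dioxygenase gene, was at 100% in all 13 libraries that list it, at 31 to 148 covering reads; EGFP replicate 1 did not list it. The change is synonymous (D100D). POLDIP3, whose protein interacts with a DNA polymerase subunit, had an intronic site at 98.8% ± 2.22 (SD, n = 12), from 93.9% to 100%. TSSC2 had a site at 100% in 3 libraries at 14 to 19 reads, and SPATA13 a site at 91.7% in 1 library at 12 reads; both were named after their values were seen. These 4 were the sites with a mean of 90% or more. H2AFV, a histone variant gene, was at 78.9% ± 17.4 (SD, n = 10), but on 2 to 11 covering reads.

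Other recurrent sites were partial. PDK1, a mitochondrial kinase gene that restrains pyruvate dehydrogenase, had a synonymous change (D418D) at 28.8% ± 8.71 (SD, n = 13), from 16% in hA3A-BE3 replicate 1 to 50% in Cas9 replicate 2. LONRF2, a RING finger gene, had the only amino acid change among sites in 10 or more libraries (L426P), at 31.0% ± 7.09 (SD, n = 12); neither PE3 library listed it. TBC1D13, a Rab GTPase regulator, was at 35.1% ± 8.29 (SD, n = 11) and HOXD10, a homeobox gene, at 11.2% ± 3.42 (SD, n = 12).

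Mitochondrial RNA had 2 T-to-C sites, both in ribosomal RNA. The MT-RNR1 site (12S) was at 7.25% ± 1.08 (SD, n = 13) on 185 to 2463 covering reads. The MT-RNR2 site (16S) was at 5.95% ± 1.01 (SD, n = 4) on 1743 to 4582 reads. Most T-to-C sites rest on far fewer reads: the median covering reads per library were 17 to 27.

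Most sites were called in 1 library only, but sites called in 2 or more libraries of 1 group and in no other group were rare. The only site called in every library of a group and in no other was in an intron of ITGAE, an integrin gene, in the EGFP libraries at 13.8% ± 3.10 (SD, n = 3). No site was called in both PE3 libraries and nowhere else. For hA3A-BE3 5 sites were called in 2 or more of its libraries and nowhere else, against 3 for non-transfection, 3 for EGFP and 4 for Cas9.

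Coding sites were mostly single calls. Of 186 in 169 genes, 171 were called in 1 library, and 90 were synonymous while 96 changed an amino acid. No stop codon was gained or lost. Zinc finger genes named ZNF held 41 of them in 28 genes (22.0%), against 31.0% of the 197 coding A-to-I sites and 20.5% of the 623 coding sites of the other changes. After the 4 genes above, the most recurrent coding sites were in FBXO34 (Y200Y, 49.2% ± 7.87, n = 6), an F-box gene, and in the zinc finger gene ZNF324 (P47P, 14.1% ± 5.82, n = 4). RBM27, an RNA-binding protein gene, followed (L876S, 6.81% ± 1.68, n = 3), and the zinc finger gene ZIK1 was among those called in 2 libraries (S389S, 10.5% ± 0.261, n = 2). The errors are SDs over the libraries that call the site.
FBXO34, coding, chr14:55350980-55351000, plus strand: atggagtctaTgctgggaggc
RBM27, coding, chr5:146269510-146269530, plus strand: atctcacaatTaaaagatgaa

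The level of T-to-C sites was low in general. Mean levels were under 10% at 326 sites, 10 to 20% at 283, 20 to 40% at 87 and higher at 30. The median per library was 13.3% ± 2.66 for T-to-C, 15.0% ± 4.53 for A-to-I and 11.6% ± 2.00 for the other changes (SD, n = 14). T-to-C was lower than A-to-I in 11 of 14 libraries (paired exact permutation test, adjusted p = 0.00776) and higher than the other changes in 11 of 14 (adjusted p = 0.0153). Neither held under every limit: the difference from A-to-I was 4.08 points at 5 or more mutated reads (adjusted p = 0.153, exact permutation test), and that from the other changes was -3.47 points at levels of 10% or more (adjusted p = 0.0135). Median covering reads were 22.6 ± 2.92 for T-to-C, 22.9 ± 5.11 for A-to-I (adjusted p = 0.874, paired exact permutation test) and 32.8 ± 4.47 for the other changes (adjusted p = 0.000264, lower in 14 of 14 libraries). Without runs, T-to-C sites had 7.11 more covering reads than A-to-I sites (adjusted p = 0.000793, paired exact permutation test), and their level exceeded that of the other changes by 0.181 points (adjusted p = 0.823).

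The neighbouring bases were read for the 381 sites with a transcript context, written on the other strand so that the changed base is an A. A few of these sites lie outside exons on their own strand and were read from an exon of the opposite-strand gene. ADAR enzymes are known to act rarely on an A that follows a G. A G came before the A at 29.7% of T-to-C sites read this way, and at 7.72% of the 5766 A-to-I sites with a transcript context, on their own strand. It was 10.9% of the 55 T-to-C sites in runs of 3 or more, 34.3% of the 306 that lay alone and 0% of the 20 called in 5 or more libraries. These sets differ in region, and the share was 38.2% at the 186 coding T-to-C sites. Within 3′ UTRs it was 12.2% of 41 sites in runs of 3 or more and 24.5% of 98 that lay alone. The A-to-I share was not split by region. A G came after the A at 42.0% of T-to-C and 44.1% of A-to-I sites. Most of the 279 sites in runs had no transcript context, being mainly intronic, so the 55 are a small part of them. The contexts of sites in runs overlap each other, and no test was made on them. Whether any of these sites was recorded on the wrong strand was not tested.

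Gene lists written from general knowledge held T-to-C sites in 0 to 2 genes each. The whole series had 726 T-to-C and 9770 A-to-I sites. The share of all genes with a site was not computed, so the counts are a description. Of 15 known ADAR recoding targets only NEIL1 had any, 14 sites, while the list had 29 A-to-I sites. Of 15 transcripts with edited long 3′ UTRs, XIAP, an apoptosis inhibitor gene, had 2 sites, each in 1 library, while the list had 327 A-to-I sites. Of 12 zinc finger genes of chromosome 19, ZNF814 and ZNF91 had 32 sites, and of 14 histone genes H2AFV had 2. A-to-I sites numbered 25 in the zinc finger list and 39 in the histone list. The 15 ADAR enzymes and regulators, 10 sensors of double-stranded RNA and 16 small non-coding RNA genes had no T-to-C site. Their A-to-I sites numbered 28, 125 and 30. The 7 blood cell and 7 fibroblast markers had no T-to-C and no A-to-I site.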

How the data were processed

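The authors deposited 1 list of changed bases per library, from RNA depleted of ribosomal and globin RNA, sequenced stranded as paired reads of 150 bases, per the labels' protocols. The submitters' processing notes list BWA 0.7.17, GRCh38 and hg38, with no role. Covering, base and mutated reads are whole-number counts as deposited by the authors. The edited level is a fraction as deposited, reads with the change over covering reads. A depth signal per gigabase is a column as deposited; its constant ratio to the depth was read as mapped gigabases, an inference. In all lists sites have at least 2 mutated reads and levels of 5.02% or more. No source used here names the caller or the strand rule; strand was read from the plus-strand base fractions. At 56 calls, 6 of them T-to-C, the mutated reads include other bases.

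Regions, neighbouring genes and contexts came from the GENCODE 29 basic annotation and its transcripts (GRCh38); the transcript base matched at 381 of 381 T-to-C contexts. Calls in overlapping genes carry the uncertainty of the strand. Libraries were compared by two-sided exact permutation tests (hA3A-BE3 or PE3 against the 9 controls, Benjamini-Hochberg over 8), and classes of sites within libraries by paired sign flips (smallest p 0.000122, over 13; 15 were planned, but 2 comparisons needed a soft-masked genome, not used here). The threshold was an adjusted p of 0.05. The tests were run on simulated data first. Named were up to 12 sites in the most libraries, 10 genes with the most sites, 8 coding sites in the most libraries, 5 genes with the most sites near A-to-I, up to 3 sites per group called in all its libraries only, up to 3 genes per gene list and up to 5 mitochondrial sites; any other name was chosen after its values were seen. The members, gene lists and tests were chosen with earlier results of these data known. Replicate numbers were not treated as pairs. Alternatives were limits on reads and level, sites of 1 library, exons only, scalings and leaving out each library, and, chosen after seeing the data, leaving out runs. Only T-to-C sites were left out with the runs, and the other classes kept theirs. PE3 replicate 1 was not analysed here. Some sequence contexts are not reported here.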

Additional observations from a re-analysis of the deposited data

Results flagged for a closer look

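Among the 9 control libraries, Cas9 replicate 3 stood apart with 166 T-to-C sites, where the next highest control had 97. In the same set, non-transfection replicate 2 stood apart with 40.2% of its T-to-C sites in 3′ UTRs. These were 2 of 30 sets of libraries examined, and chance alone marks about 1 in 20.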

How the results depend on the processing

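Values are differences on the scale of the report (log2 for numbers, percentage points for shares and levels, reads for coverage); for those that turned or lost the threshold the cause was not tested, and fewer sites enter under each limit. No comparison of hA3A-BE3 or PE3 with the controls passed the threshold under any setting run. At 20 or more covering reads the median level was -0.425 (hA3A-BE3) and -0.600 (PE3), the mean at sites of all libraries 1.67 (PE3), coverage against A-to-I 1.68, and against the other changes the 3′ UTR share -2.16 and the median level -0.423. At 50 or more reads, hA3A-BE3 differed by -0.0432 in number, -0.00178 in share and -0.239 in median level. T-to-C then differed from A-to-I by 1.16 in opposite-strand genes and -4.41 in introns, and from the other changes by 2.27, 0.759 (introns), -1.59 (near A-to-I), -7.37 (3′ UTR), 0.0449 (level) and -1.54 (coverage). At levels of 10% or more, the opposite-strand-only share against A-to-I was -0.0114 and the level -1.09, and against the other changes nearness to A-to-I was 3.04 and the level -3.47. At 5 or more mutated reads PE3 differed by -0.553 in level and 1.67 at sites of all libraries, T-to-C from A-to-I by 4.08 in level, and nearness by 0.600. Without sites of non-transfection libraries the hA3A-BE3 share was -0.145. The PE3 number was 0.146 per gigabase and 0.209 per 1000 A-to-I sites. Over sites of 1 library, the opposite-only share was -0.106, introns -4.24 and coverage 6.75 against A-to-I, and nearness -1.87 and 3′ UTR -4.11 against the other changes. With exons only, the opposite-only share was 1.26 above A-to-I and 0.940 above the other changes. Without runs of T-to-C sites, the other classes keeping theirs, the hA3A-BE3 share was -0.0993. Introns were then -1.75 and coverage 7.11 against A-to-I. Against the other changes nearness was 0.464, 3′ UTR -2.50 and level 0.181. The number of distinct T-to-C sites was 102 at 50 reads, 422 at levels of 10% and 119 at 5 mutated reads.

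Leaving out each library in turn, the differences that changed sign ranged as follows. Coverage against A-to-I ran from -1.08 (without PE3 replicate 2) to 0.154 (without Cas9 replicate 3). The PE3 share ran from -0.752 to 1.89 and its median level from -2.22 to 7.25 (without PE3 replicate 2 and 3, respectively), and its mean at sites of all libraries from -6.81 to 1.22 (without replicate 3 and 2). The hA3A-BE3 share ran from -0.191 to 0.569 and the number from -0.11 to 0.36 (without hA3A-BE3 replicate 3 and 1).

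Same-numbered libraries deviated together with a correlation over 0.1 in 3 of 26 pairs, and 3 libraries correlated best with their own number. With the replicate block the hA3A-BE3 number differed by 0.12 (exact permutation p = 0.594) and the PE3 number by -0.51 (exact permutation p = 0.125); no call changed. Low depth limits all of this: median covering reads at T-to-C sites were 17 to 27 per library, and a site missing from a list may be unread.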
